A study of Mus musculus with 12 samples.

Results

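The genes described here encode the metalloproteases that cut the extracellular matrix and the cell surface, and the tissue inhibitors that block them. They were taken from the gene count table by name: protein-coding genes whose symbol begins with Mmp, Adam, Adamts or Timp followed directly by a digit. This gave 79 of the 55487 genes in the table, made up of 22 matrix metalloproteases (MMPs), 34 ADAMs, 19 ADAMTS proteases and 4 TIMPs. Mmp1a, typed in the table as a polymorphic pseudogene, falls outside the rule.

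RNA was measured in breast tumours of 12 C57BL/6J mice, all carrying MMTV-PyMT, a transgene that places the polyoma middle T oncogene under a viral promoter active in mammary epithelium. Of these, 6 mice had wild-type Bad (Bad_WT) and 6 carried Bad 3SA (Bad3SA), whose product lacks the serines at which the pro-apoptotic protein BAD is phosphorylated and held inactive. The series text calls the mice independent and matched for end-point age. Their end points were at 21.286 to 27.143 weeks in Bad_WT and 22.857 to 31.143 weeks in Bad3SA. The mean was 3.40 weeks higher in Bad3SA (exact two-sided permutation p = 0.0433). Total counts ran from 58096172 to 83296370 per tumour, and the 79 genes held between 0.157% and 0.253% of them. All 8 luminal epithelial markers were detected, with a summed level of 5298 to 7195 CPM (counts scaled to the TMM-adjusted library total). Every marker of fibroblasts, macrophages, endothelium and the other cell types listed was also above 0 in at least 1 tumour. That alone cannot tell whole tumour from enriched epithelium. The summed markers of fibroblasts, macrophages and endothelium ran from 374 to 3647, 449 to 1228 and 120 to 243 CPM, so the RNA is of mixed cells. In RNA of mixed cells, fewer cells of a type and less RNA per cell cannot be told apart.

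MMPs are made as inactive zymogens in which a cysteine blocks the catalytic zinc. Once activated they cut collagens, laminin and other matrix proteins. ADAMs sit in the membrane and release the outer parts of growth factors, cytokines and adhesion proteins, and ADAMTS proteases are secreted and cut proteoglycans and procollagens. TIMPs bind the active site of most MMPs and of some ADAMs and ADAMTS proteases. In the mammary gland these proteases act in duct branching and in the regression after lactation, and much of their RNA in breast tumours comes from stromal cells.

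Short sequence motifs were looked for in the promoters of these genes. Of the 79 genes, 49 matched an entry by symbol in the RefSeq promoter table (GRCm38.p6), with 54 entries in all, and the 250 bases before each start were searched on both strands. The AP-1 element through which FOS and JUN proteins act on MMP genes, TGAGTCA or its reverse complement TGACTCA, was found in 8 of the 54 entries. It was found in 4.46% of the 32851 promoters in the whole table. Of the 8, 6 belonged to MMPs of a single cluster on chromosome 9 (Mmp3, Mmp7, Mmp10, Mmp12, Mmp13 and Mmp1b), and the other two to Adam19 and Adam29. None of the 10 ADAMTS entries and none of the 4 TIMP entries held it. The TATA box TATAAA was in 11 of the 54 entries and in 12.4% of all promoters. The GC box GGGCGG was in 20 of the 54 entries and in 32.7% of all promoters, among them Adam10, Adam17, Mmp14, Mmp15, Timp1, Timp2 and Timp3. A match is a description of letters and not of a bound factor.

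The 120 bases before the start of 4 clustered MMP genes and of the 2 main sheddase genes are shown because they hold different motifs, AP-1 and TATA box in the former and GC box in the latter. Capitals mark the AP-1, TATA box and GC box letters just given.
Mmp3, chr9:7445702-7445821, plus strand: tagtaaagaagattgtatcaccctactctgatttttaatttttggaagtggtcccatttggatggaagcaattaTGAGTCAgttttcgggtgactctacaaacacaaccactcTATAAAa
Mmp7, chr9:7691970-7692089, plus strand: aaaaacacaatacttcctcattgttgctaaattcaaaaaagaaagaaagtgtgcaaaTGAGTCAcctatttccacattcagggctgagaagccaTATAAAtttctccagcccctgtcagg
Mmp10, chr9:7502222-7502341, plus strand: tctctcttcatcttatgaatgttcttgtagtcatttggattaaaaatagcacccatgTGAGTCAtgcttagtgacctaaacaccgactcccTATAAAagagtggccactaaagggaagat
Mmp13, chr9:7272394-7272513, plus strand: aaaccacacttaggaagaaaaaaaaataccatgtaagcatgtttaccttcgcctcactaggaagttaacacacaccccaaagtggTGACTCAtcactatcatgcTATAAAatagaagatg
Adam10, chr9:70678862-70678981, plus strand: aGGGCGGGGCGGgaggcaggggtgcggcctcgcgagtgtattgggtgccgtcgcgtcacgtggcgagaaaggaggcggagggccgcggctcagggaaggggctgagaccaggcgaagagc
Adam17, chr12:21373633-21373752, minus strand: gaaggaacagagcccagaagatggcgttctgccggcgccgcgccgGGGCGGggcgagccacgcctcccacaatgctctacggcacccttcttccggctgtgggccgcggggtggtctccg
In Mmp3 the AP-1 letters begin 46 bases before the RefSeq start and in Mmp13 35 bases before it, and in Mmp7 and Mmp10 they begin 63 bases before it. Each of these 4 windows also holds TATAAA between the AP-1 letters and the start. CG dinucleotides number 14 in the Adam10 window and 14 in the Adam17 window, against 1 in Mmp3, none in Mmp7, 1 in Mmp10 and 1 in Mmp13. Mmp7 has 2 entries, and the 120 bases of the other, chr9:7692221-7692340, hold none of these letters and 5 CG. Mmp12, in the same cluster, also has 2 entries, of which 1 holds the AP-1 letters and neither holds TATAAA.

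Levels are compared between genes as CPM per kilobase of exon, averaged over the 12 tumours. Timp2, which encodes an inhibitor that also takes part in activating pro-MMP2 at the cell surface, was the most abundant of the 79 at 113 CPM per kb. Adam10, the sheddase of Notch receptors and cadherins, followed at 43.5 CPM per kb, and Mmp15, a membrane-type MMP, at 42.8. Adam9 stood at 37.4, Mmp14, the membrane-type collagenase that activates pro-MMP2, at 32.3, and Mmp2, a gelatinase gene of stromal cells, at 31.8 CPM per kb. Among ADAMTS genes Adamts1 was highest at 13.3 CPM per kb, then Adamts2 at 6.93 and Adamts10 at 6.07. The gelatinase gene Mmp9, the stromelysin gene Mmp10 and the neutrophil collagenase gene Mmp8 were low, at 0.447, 0.144 and 0.163 CPM per kb.

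**Figure D1:**
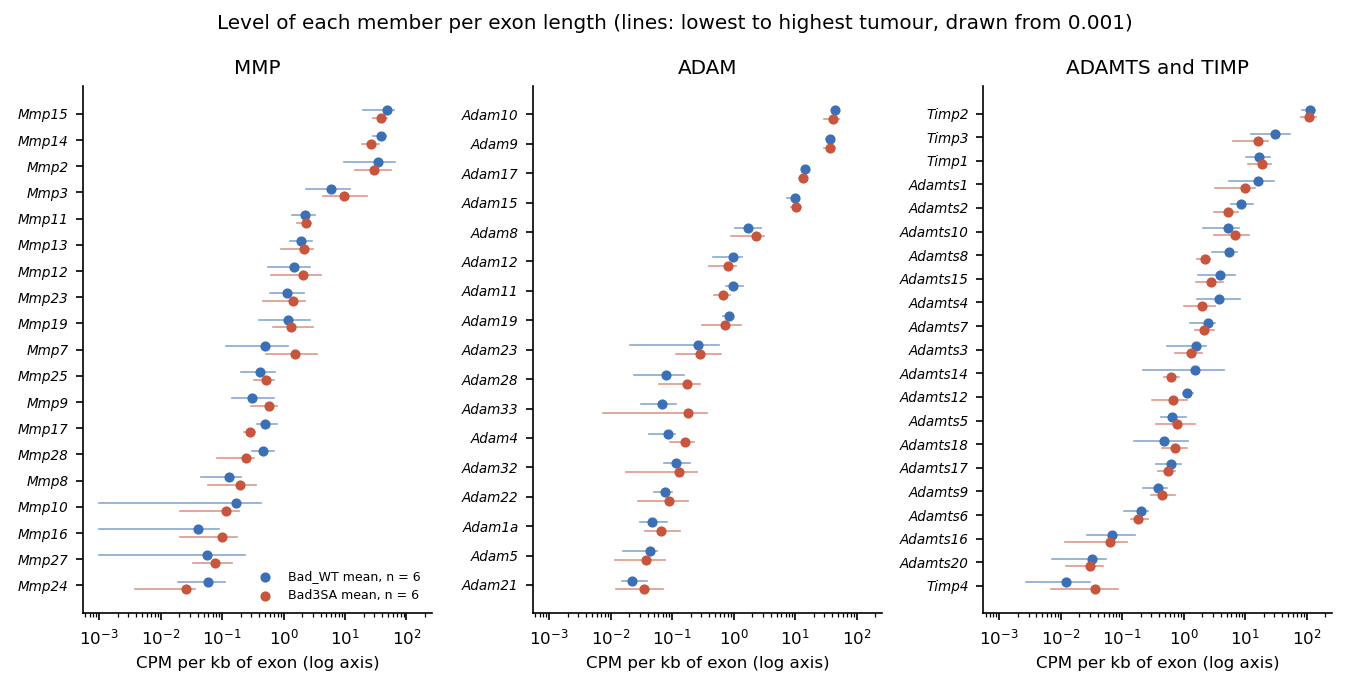
Mean level of each gene with at least 0.02 CPM per kb of exon, on a log axis, for Bad_WT (blue) and Bad3SA (red), 6 tumours each, with lines from the lowest to the highest tumour (values under 0.001 are drawn at 0.001). Timp2 is the highest in both genotypes.

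Of the 79 genes, 53 had enough counts to be tested for genotype with the quasi-likelihood test of edgeR, and 26 did not. The latter were 19 ADAMs, 4 MMPs, 2 ADAMTS genes and Timp4, with at most 128 counts over the 12 tumours. Most of those ADAMs are known from testis and sperm. Adam6a, Adam6b, Adam26a, Adam34l and Adam39 had no count in any tumour, against a floor of 3 counts that corresponded to between 0.0346 and 0.0544 CPM. Another 6 ADAMs had no count in Bad_WT and from 1 (Adam18) to 11 (Adam7) over the 6 Bad3SA tumours, which is too few to compare.

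Adamts8 was the only one of the 53 to pass at an adjusted p under 0.05, where 1.38% of the 18019 genes tested did (0.760% lower and 0.622% higher in Bad3SA). Adamts8 (ENSMUSG00000031994, GRCm38 chromosome 9, 30942562 to 30963838, plus strand) encodes a secreted protease that can cut the proteoglycan aggrecan and is known to restrain blood vessel growth. In Bad_WT it ran from 13.6 to 34.2 CPM with a median of 27.0, and in Bad3SA from 7.48 to 12.5 CPM with a median of 10.2. Every Bad3SA tumour lay below every Bad_WT tumour, although Bad_WT 5 and 6, at 15.9 and 13.6 CPM, came close to Bad3SA 5 at 12.5. Bad_WT averaged 25.1 ± 8.71 CPM, and Bad3SA averaged 10.2 ± 1.95 (SD, n = 6 each). On the log2 scale Bad3SA stood at -1.31 (SE 0.24, edgeR adjusted p = 0.0143). In the authors' deposited table, whose sign is Bad_WT over Bad3SA, it stands at 1.21 with an adjusted p of 3.01e-05 (DESeq2), and 4.02% of the genes with an adjusted p there are called.

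The Adamts8 difference was as large with end-point age in the model, at log2 -1.66 (edgeR adjusted p = 0.00716), and without Bad_WT 5 and 6 together, at -1.58 (adjusted p = 8.38e-04). It missed the threshold without Bad3SA 3 (-1.27, edgeR adjusted p = 0.0528) and without Bad3SA 4, 5 and 6 together (-1.56, adjusted p = 0.0680). The antisense gene Gm29724 overlaps Adamts8 on the other strand and had 75 counts in Bad_WT and 33 in Bad3SA, against 11643 and 4133 for Adamts8. Endothelial markers, which mark the cells Adamts8 is known to act on, summed to between 134 and 231 CPM in Bad_WT and between 120 and 243 CPM in Bad3SA. A relation between these sums and the Adamts8 level was not tested.

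Mmp17 was the other gene whose genotypes did not overlap, which makes 2 of the 53 tested, both lower in Bad3SA, where 2.23% of all tested genes did not overlap (1.27% lower and 0.960% higher). Mmp17 (ENSMUSG00000029436, chromosome 5, 129584169 to 129611099) encodes a membrane-type MMP held by a lipid anchor. It ran from 2.45 to 5.09 CPM in Bad_WT, with a median of 3.21, and from 1.505 to 2.27 CPM in Bad3SA, with a median of 1.83. The highest tumour was Bad_WT 3, and the gap between the closest tumours of the genotypes was small. Its log2 fold change was -0.83 (SE 0.22), and it did not pass in edgeR (adjusted p = 0.0919). In the authors' deposited table it passes (0.78 for Bad_WT over Bad3SA, DESeq2 adjusted p = 0.00429), and it also passed in the DESeq2 and limma voom fits made here (adjusted p = 0.00425 and 0.0497).

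**Figure D2:**
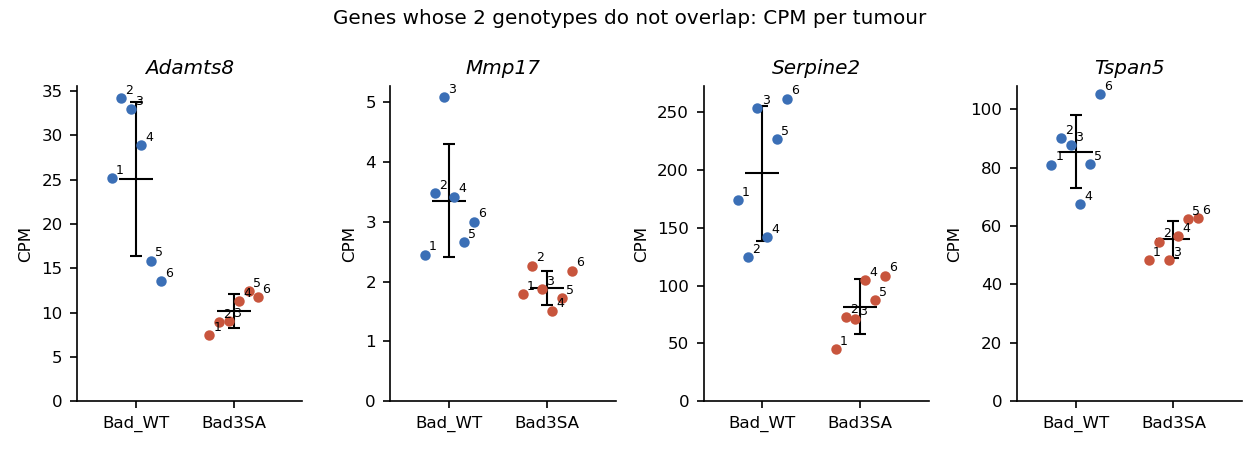
CPM in each tumour, labelled by its number, for Adamts8, Mmp17, Serpine2 and Tspan5, with the mean and SD of 6 tumours per genotype. In each panel the highest Bad3SA tumour lies below the lowest Bad_WT tumour.

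At an unadjusted p under 0.05 the count was 15 of 53, with 10 lower and 5 higher in Bad3SA. Over all 18019 genes that share was 16.2%, with 9.02% lower and 7.18% higher. The median log2 fold change was -0.0703 over the 53 genes and 0.0033 over all genes tested. By family the median was 0.15 for 18 MMPs, 0.14 for 15 ADAMs and -0.20 for 17 ADAMTS genes, of which 13 were negative. Of all genes tested 49.6% were negative.

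**Figure D3:**
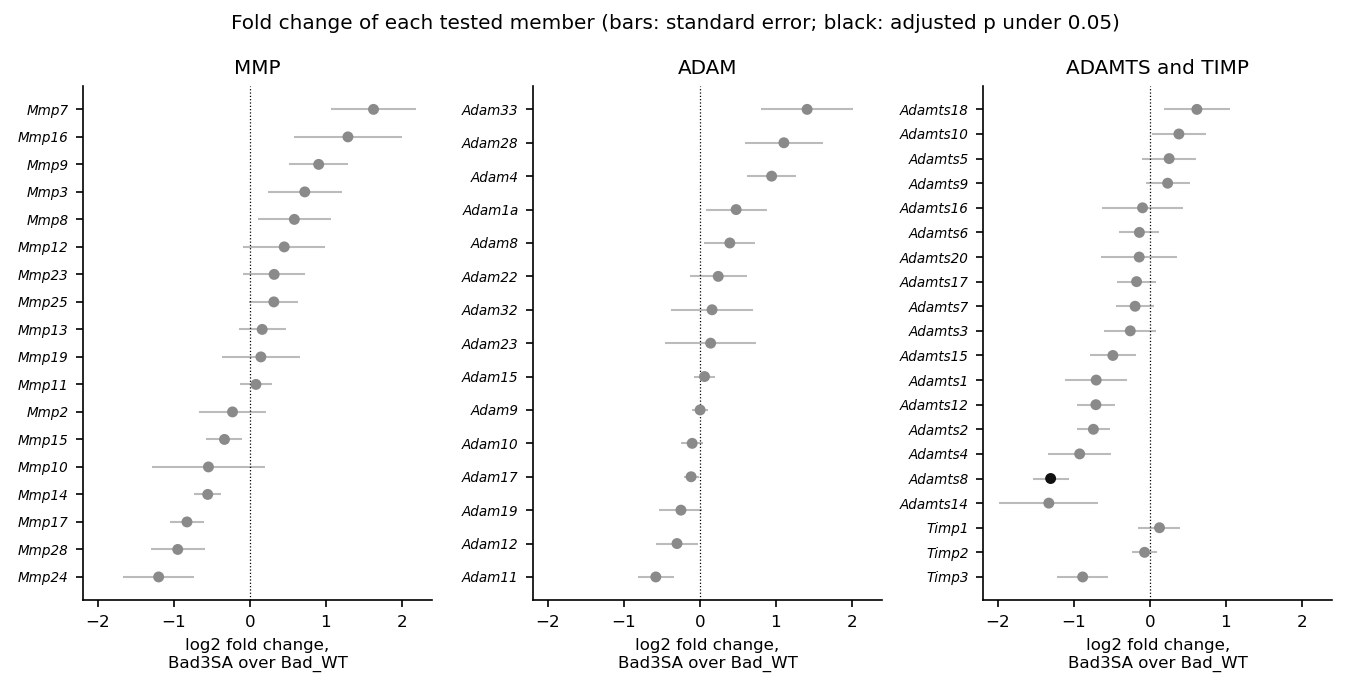
Log2 fold change of Bad3SA over Bad_WT for each of the 53 tested genes, with its standard error from edgeR. Adamts8 at -1.31, in black, is the only one with an adjusted p under 0.05.

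Among the membrane-type MMPs, which act at the cell surface, 4 of 6 were negative and none passed. Mmp14 ran from 171 to 274 CPM in Bad_WT (median 246) and from 111 to 216 CPM in Bad3SA (median 143). The ranges overlapped, with the highest value in Bad_WT 6 and the lowest in Bad3SA 5. The log2 fold change was -0.55 (SE 0.18, edgeR adjusted p = 0.167). Mmp15 stood at -0.33 (SE 0.24), with means of 258 ± 90.2 and 205 ± 34.2 CPM (SD, n = 6 each). Mmp24 was scarce, at 0.282 ± 0.153 and 0.120 ± 0.0535 CPM, and stood at -1.20 (SE 0.47, edgeR adjusted p = 0.243). Mmp16 and Mmp25 were positive, at 1.29 (SE 0.71, edgeR adjusted p = 0.380) and 0.32 (SE 0.32). Mmp16 was scarce as well, at 0.349 ± 0.276 and 0.863 ± 0.533 CPM, with 0 CPM in Bad_WT 6.

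The gelatinase genes differed in abundance and neither passed. Mmp2 ran from 32.6 to 222 CPM in Bad_WT (median 96.2) and from 49.3 to 189 CPM in Bad3SA (median 89.0). The ranges lay over each other, and the log2 fold change was -0.23 (SE 0.44, edgeR adjusted p = 0.810). Its highest tumours, Bad_WT 4 at 222 CPM and Bad3SA 2 at 189 CPM, had the highest summed fibroblast markers, 2890 and 3647 CPM, and its lowest, Bad_WT 6, had the lowest sum, 374 CPM. The order was not the same throughout, since Bad3SA 6 combined a fibroblast sum of 1973 CPM with 58.6 CPM of Mmp2. The match was not particular to fibroblasts. Summed macrophage markers were also highest in Bad_WT 4 and Bad3SA 2, at 1184 and 1228 CPM, and lowest in Bad_WT 6, at 449 CPM. Skeletal muscle markers were highest in Bad_WT 4 and Bad3SA 2 too, at 1282 and 174 CPM. The part of any of these cell types in the Mmp2 levels was not tested. Mmp9, which neutrophils and macrophages store or secrete, ran from 0.519 to 2.49 CPM in Bad_WT (median 0.895) and from 1.03 to 2.81 CPM in Bad3SA (median 2.30). In Bad_WT it was high in tumour 4 alone, where the summed neutrophil markers were also highest, at 78.2 CPM against at most 21.5 in the other 11. Of that sum S100a8 and S100a9, which keratinocytes also make, held 51.0 and 21.7 CPM, while Csf3r was at 3.54 CPM and Ly6g at 0.0744. The squamous keratinocyte markers of the same tumour summed to 574 CPM, which like its skeletal muscle sum of 1282 CPM was the highest of the 12. The part of any of these cell types in the Mmp9 level was not tested. The log2 fold change of Mmp9 was 0.91 (SE 0.39, edgeR adjusted p = 0.276), and it passed in the limma voom fit (1.37, adjusted p = 0.0394).

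The clustered MMP genes lie side by side on chromosome 9 between 7272514 (Mmp13) and 7699585 (Mmp7), and 6 of the 9 in the count table that meet the rule were tested. None passed. Mmp3, the gene of stromelysin-1, a broad matrix protease of stromal cells, ran from 4.17 to 21.9 CPM in Bad_WT (median 8.81) and from 7.84 to 41.8 CPM in Bad3SA (median 14.03). Bad3SA 2 stood far above the other tumours, and the log2 fold change was 0.72 (SE 0.49, edgeR adjusted p = 0.468). Without Bad3SA 2 it was 0.25. Mmp13, which encodes the main interstitial collagenase of rodents, kept a narrower range, 3.47 to 7.90 CPM in Bad_WT and 2.43 to 8.22 CPM in Bad3SA, and stood at 0.16 (SE 0.31).

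Mmp7 encodes matrilysin, an epithelial MMP. It ran from 0.122 to 1.27 CPM in Bad_WT (median 0.443) and from 0.549 to 3.71 CPM in Bad3SA (median 1.18). Bad3SA 1 and Bad3SA 5 were highest and the ranges overlapped. The log2 fold change of 1.63 (SE 0.56) was the largest positive one among the 53, and it did not pass in edgeR (adjusted p = 0.189). DESeq2 run here called it (adjusted p = 0.0484), while in the authors' deposited table its adjusted p is 0.0503. Mmp12, the elastase gene of macrophages, was at 30.0, 23.6 and 20.4 CPM in Bad3SA 1, 2 and 3 and at 4.56 to 5.55 CPM in Bad3SA 4, 5 and 6. The summed macrophage markers overlapped between these tumours, at 758, 1228 and 851 CPM in the former and 732, 941 and 480 CPM in the latter. The part of macrophages in these Mmp12 levels was not tested. Mmp11, the stromelysin-3 gene outside the cluster, stood at 0.08 (SE 0.21), with 6.20 ± 1.69 and 6.56 ± 1.12 CPM (SD, n = 6 each). Mmp28, the epilysin gene, stood at -0.95 (SE 0.36, edgeR adjusted p = 0.225).

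Adam17 and Adam9, widely expressed catalytic ADAMs, were among the 3 steadiest of the tested genes in both genotypes. Adam17, which encodes the sheddase of TNF and of EGF receptor ligands, ran from 97.5 to 116 CPM in Bad_WT (median 100.4) and from 82.1 to 111 CPM in Bad3SA (median 95.8). Its coefficient of variation was 6.72% in Bad_WT and 12.9% in Bad3SA, the lowest of the 53 in both genotypes. The log2 fold change was -0.12 (SE 0.10, edgeR adjusted p = 0.560). Adam10 stood at -0.10 (SE 0.14), with 221 ± 17.9 and 206 ± 47.6 CPM (SD, n = 6 each), and its values were 256, 254 and 234 CPM in Bad3SA 1, 2 and 3 and 165, 183 and 146 CPM in Bad3SA 4, 5 and 6. Adam9 stood at 0.0031 (SE 0.11) and Adam15 at 0.06 (SE 0.14). By contrast the coefficient of variation of Mmp3 was 67.4% in Bad_WT and 71.6% in Bad3SA, and that of Mmp7 75.2% and 72.0%. Mmp7 had only 10 to 78 counts per Bad_WT tumour, against 6653 to 8448 for Adam17, so counting error adds more to its spread.

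None of the other named ADAM genes passed. Adam33 stood at 1.41 (SE 0.61) with 0.0406 to 1.98 CPM in Bad3SA, and Adam28, known from lymphocytes and carcinomas, at 1.11 (SE 0.51) with 0.564 to 2.60 CPM in Bad3SA. Adam11, which encodes a protein without protease activity that is best known from neurons, ran from 4.24 to 8.22 CPM in Bad_WT and from 2.76 to 4.95 CPM in Bad3SA. Its log2 fold change was -0.58 (SE 0.23, edgeR adjusted p = 0.250), and it passed in the limma voom fit (-0.82, adjusted p = 0.0490). Adam4 stood at 0.94 (SE 0.32, edgeR adjusted p = 0.186) and Adam1a at 0.48 (SE 0.40). Both share their span with other genes on the same strand (Cox16 for Adam4, Mapkapk5 for Adam1a), so reads may be divided between them.

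The ADAMTS genes that cut proteoglycans had Adamts8 as their single call, and 5 of 7 were negative. Adamts15, the neighbour of Adamts8 on chromosome 9 (30899155 to 30922452, minus strand), ran from 17.9 to 70.6 CPM in Bad_WT and from 16.6 to 44.9 CPM in Bad3SA and stood at -0.49 (SE 0.30, edgeR adjusted p = 0.432). As with Adamts8, Bad_WT 5 and 6 were its lowest Bad_WT tumours, at 29.5 and 17.9 CPM. Adamts1, a versican and aggrecan protease gene, ran from 29.4 to 154 CPM in Bad_WT (median 82.6) and from 17.4 to 77.3 CPM in Bad3SA (median 58.5). Bad_WT 5, 4 and 6 were highest, and the log2 fold change was -0.71 (SE 0.41, edgeR adjusted p = 0.399). Adamts4, the aggrecanase-1 gene, had its highest values in Bad_WT 6 and 5, at 40.4 and 26.8 CPM, against 8.03 to 12.4 CPM in Bad_WT 1 to 4 and 4.90 to 15.7 CPM in Bad3SA. It stood at -0.92 (SE 0.41, edgeR adjusted p = 0.294).

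Bad_WT 5 and 6 also set the mean of the procollagen protease gene Adamts14. It was at 16.1 and 23.1 CPM in these tumours, against 1.12 to 3.89 CPM in Bad_WT 1 to 4 and 2.49 to 4.38 CPM in Bad3SA. The log2 fold change was -1.33 (SE 0.65, edgeR adjusted p = 0.334), and it was 0.49 (adjusted p = 0.522) without those 2 tumours. The immediate-early genes Fos and Egr1, picked after their values were seen, were highest in the same tumours: Egr1 was at 395 and 334 CPM there and at 56.0 to 109 CPM in the other 10, and Fos at 168 and 143 CPM against 31.0 to 78.4 CPM. The heat-shock gene Hspa1a, picked in the same way, was at 127 and 90.9 CPM there and at 2.82 to 13.4 CPM in the others. The part of these in the ADAMTS levels was not tested. Without Bad_WT 5 and 6, Adamts1 stood at -0.33, Adamts4 at -0.12 (edgeR adjusted p = 0.881) and Timp3 at -0.52.

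Adamts2, which encodes the main procollagen I N-proteinase, ran from 54.4 to 124 CPM in Bad_WT (median 75.9) and from 29.2 to 70.6 CPM in Bad3SA (median 49.2). Bad3SA 2 was the only Bad3SA tumour above the lowest Bad_WT tumour. The log2 fold change was -0.74 (SE 0.22, edgeR adjusted p = 0.138). Of its substrates' genes, Col1a1 stood at 0.66 (SE 0.49) and Col3a1 at 0.74 (SE 0.57), and neither passed. Adamts12 ran from 10.8 to 15.5 CPM in Bad_WT and from 3.29 to 12.2 CPM in Bad3SA and stood at -0.71 (SE 0.25, edgeR adjusted p = 0.197). Adamts10, which acts on fibrillin microfibrils, stood at 0.38 (SE 0.35), with its highest values in Bad3SA 6 and 4, at 95.0 and 89.4 CPM.

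**Figure D4:**
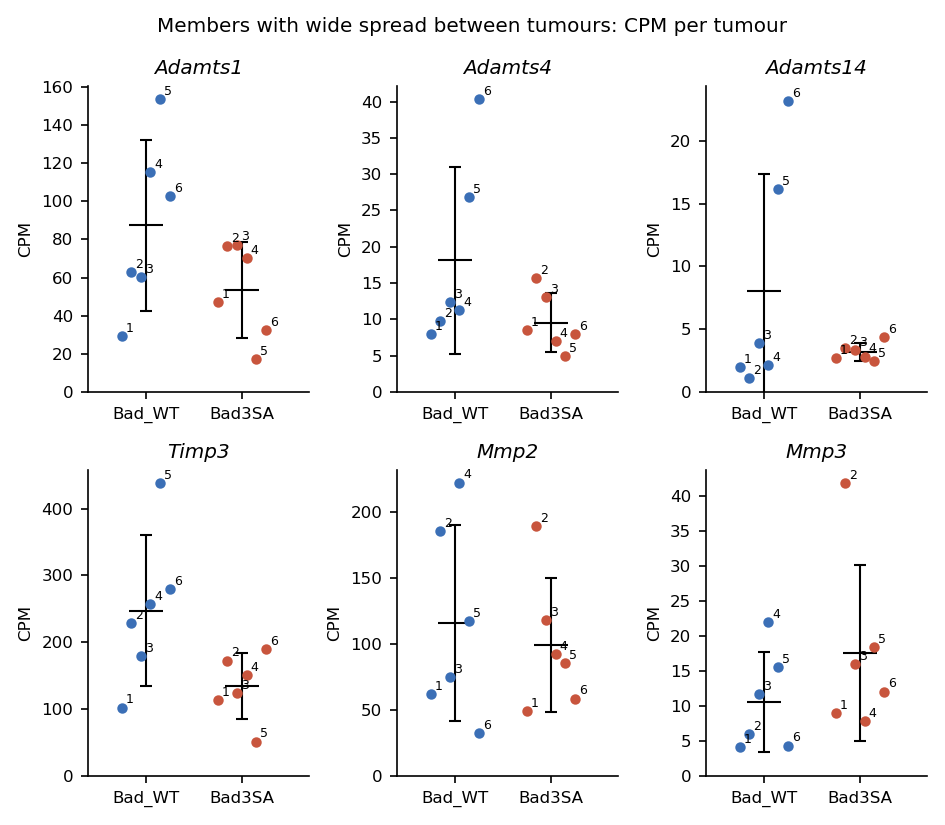
CPM in each tumour, labelled by its number, for Adamts1, Adamts4, Adamts14, Timp3, Mmp2 and Mmp3, with the mean and SD of 6 tumours per genotype (error bars are cut at 0). Adamts4 and Adamts14 are highest in Bad_WT 5 and 6, and Mmp3 is highest in Bad3SA 2 at 41.8 CPM.

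No TIMP gene passed. Timp2 ran from 326 to 533 CPM in Bad_WT and from 315 to 557 CPM in Bad3SA and stood at -0.0703 (SE 0.16, edgeR adjusted p = 0.846). Timp3 encodes the inhibitor that stays bound to the matrix and blocks ADAM17 and ADAMTS aggrecanases. It ran from 102 to 438 CPM in Bad_WT (median 243) and from 51.6 to 190 CPM in Bad3SA (median 138). Bad_WT 5 was highest and Bad3SA 5 lowest, and only Bad_WT 1 and 3 lay inside the Bad3SA range. Its log2 fold change was -0.89 (SE 0.34, edgeR adjusted p = 0.227). Timp1, an inducible inhibitor gene, stood at 0.13 (SE 0.28), with 15.1 ± 5.42 and 16.5 ± 5.85 CPM (SD, n = 6 each). Timp4, not tested, had 32 counts in Bad_WT and 80 in Bad3SA. Timp1, Timp3 and Timp4 each lie within the span of a synapsin gene (Syn1, Syn3 and Syn2) on the other strand.

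**Figure D5:**
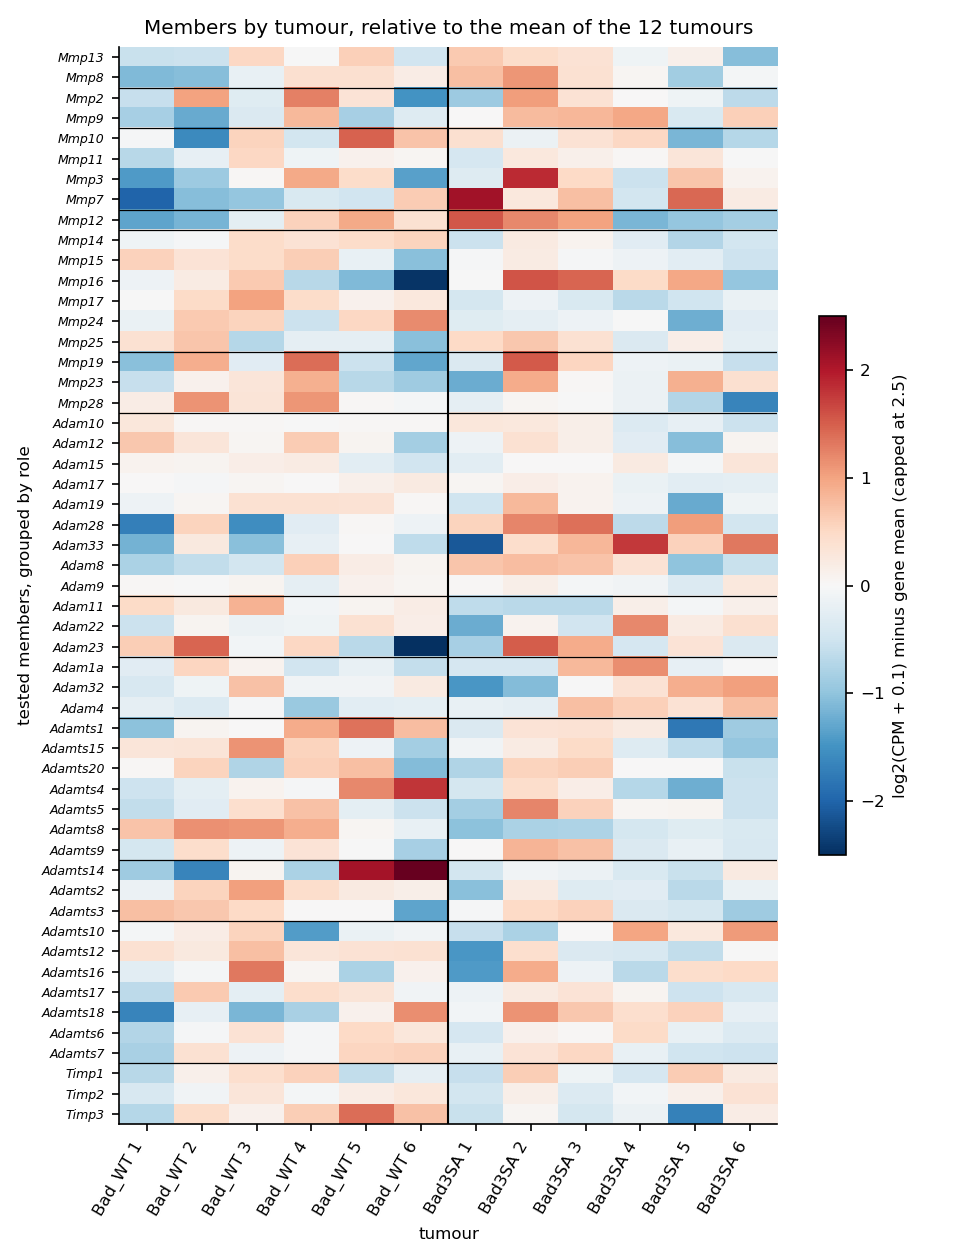
Level of each of the 53 tested genes (rows, grouped by role) in each tumour, as log2(CPM + 0.1) minus the mean of the 12 tumours, with the colour capped at 2.5. Adamts8 is lower in every Bad3SA tumour than in every Bad_WT tumour, and Adamts4 and Adamts14 are highest in Bad_WT 5 and 6.

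No single tumour held the highest value of most genes. Of the 53, 10 were highest in Bad3SA 2, 7 in Bad_WT 3 and 7 in Bad_WT 6, and 11 each were lowest in Bad_WT 1 and in Bad_WT 6. Bad3SA 2 had the highest summed fibroblast markers, 3647 CPM, where the other Bad3SA tumours had 540.5 to 1973 CPM. Its summed macrophage and endothelial markers were also the highest of all tumours, at 1228 and 243 CPM. The genes highest there were Mmp3, Mmp8, Mmp16, Mmp19, Mmp23, Adam8, Adam19, Adam23, Adamts5 and Adamts9. The part of any cell type in these levels was not tested.

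Of 89 related genes tested outside the families, 2 (2.25%) passed, both lower in Bad3SA, against 1.38% of all genes tested. Serpine2 (ENSMUSG00000026249, chromosome 1, 79794197 to 79861180) encodes protease nexin-1, an inhibitor of thrombin and of plasminogen activators. It ran from 124 to 262 CPM in Bad_WT (median 200.5) and from 45.3 to 109 CPM in Bad3SA (median 80.0). The genotypes did not overlap, and the log2 fold change was -1.27 (SE 0.24, edgeR adjusted p = 0.0161). It was the 1 call among 7 tested genes of plasminogen activation, in which Plau, the urokinase gene, stood at -0.28 (SE 0.25). Without Bad3SA 3 the adjusted p was 0.0516, and without Bad_WT 5 and 6 together it was 0.0758 (log2 -1.09).

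Tspan5 (ENSMUSG00000028152, chromosome 3, 138742195 to 138907905) encodes a tetraspanin that escorts ADAM10 to the cell surface. It ran from 67.5 to 105 CPM in Bad_WT (median 84.5) and from 48.2 to 62.8 CPM in Bad3SA (median 55.6). The genotypes did not overlap, and the log2 fold change was -0.62 (SE 0.12, edgeR adjusted p = 0.0161). It was the 1 call among 8 tested ADAM10 and ADAM17 partners. The other tetraspanins of ADAM10 stood at -0.25 (Tspan14), 0.26 (Tspan15), 0.13 (Tspan17) and 0.05 (Tspan33), and the rhomboid-like partners of ADAM17 at -0.21 (Rhbdf1) and -0.15 (Rhbdf2). With end-point age in the model neither gene passed, Serpine2 at log2 -1.27 (edgeR adjusted p = 0.235) and Tspan5 at -0.68 (adjusted p = 0.103).

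In the other lists none passed. Of 25 proteins shed by ADAMs, 15 genes were negative, with a median of -0.0559. Erbb4, a receptor that ADAM17 sheds, stood at -1.19 (SE 0.39, edgeR adjusted p = 0.169) and Epgn, the epigen gene, at -1.85 (SE 0.62, adjusted p = 0.181), with 7.60 CPM of Epgn in Bad_WT 6 and a log2 value of -0.93 without Bad_WT 5 and 6. Of 14 cathepsins and cystatins 10 were positive, with a median of 0.16. Ctsa stood at 0.43 (SE 0.13, edgeR adjusted p = 0.139), and Cst3, the cystatin C gene, at -1.21 (SE 0.39, adjusted p = 0.167) with 2148 CPM in Bad_WT 3, without which it stood at -0.67. The 12 partners of MMP activation had a median of 0.0393, with Pcsk7 at -0.16 and Pcsk6 at -0.55. The 13 ADAMTS substrates had a median of 0.18, with Ncan at -1.10 and Bcan at -1.36 (-0.35 without Bad_WT 2), and the 11 tested astacin and ADAMTS-like genes had a median of -0.0949, with Papln, the papilin gene, at -0.69 (SE 0.20, edgeR adjusted p = 0.129) and Pcolce2 at 0.87 (SE 0.35). In the DESeq2 fit 6 related genes passed, adding Cst3, Epgn, Erbb4 and Papln, all lower in Bad3SA.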

How the data were processed

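RNA from 12 breast tumours, 6 per genotype, was sequenced as polyadenylated RNA, per the labels. Whole-number read counts for each Ensembl gene are what the authors deposited. STAR 2.7.9a, fastp 0.23.1, DESeq2 and GRCm38 are named in the submitters' processing notes. No source used here gives the counter or its strand setting, so overlapping genes on opposite strands cannot be told apart. The authors' own table gives, per the file headers, a log2 fold change, a standard error and Wald score, a mean normalised signal and p-values. From it the text takes fold changes and adjusted p-values.

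Low genes were removed by filterByExpr in edgeR 4.0.16 (R 4.3.3), and the rest were normalised with TMM and tested with the robust quasi-likelihood F test for genotype. P-values were adjusted by Benjamini-Hochberg over the 18019 genes tested, with a threshold of 0.05. Positive values are higher in Bad3SA. The standard error is its size over the square root of F. CPM used TMM-scaled totals. Exon length and positions come from GENCODE M21 (GRCm38). On simulated counts over 17758 genes the test called 42.9% of genes changed by log2 1 and 77.2% of those changed by 2, with 5 unchanged genes called. Floors cover counting error only. No tumour's counts duplicated another's.

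Members and lists were chosen with earlier results of these data known. The named genes are those that passed, the TIMPs, the 5 smallest p-values and 3 highest levels per length in the MMP, ADAM and ADAMTS families, and 9 classical members. In related lists they are those that passed, or else the 2 smallest p-values. Others were named after their values were seen. Alternatives were DESeq2 1.42.0 (size factors or Wald test), limma 3.58.1 voom with quality weights, other filters, a non-robust dispersion, end-point age in the model, a block for the number in the title, and tumours left out. Leaving out Bad_WT 5 and 6, or Bad3SA 4, 5 and 6, was chosen after seeing the data. A split of ADAMs by the zinc-binding motif of their proteins was not made here.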

Additional observations from a re-analysis of the deposited data

Results flagged for a closer look

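Of 84 groups of 6 tumours examined (42 named genes in 2 genotypes), 8 had a tumour far from the rest of its group. Chance gives about 1 in 20 for normally distributed, independent values. CPM values need not be normal and these genes share tumours, so the chance rate here is not known. Mmp3 was at 41.8 CPM in Bad3SA 2, with the next tumour at 18.4. Mmp9 was at 2.49 CPM in Bad_WT 4, with the next at 1.08. Mmp24 was at 0.0181 CPM in Bad3SA 5, where the next lowest was 0.122. The 0.0181 CPM is 1 count, under the floor of 3 counts. Adam10 reached 258 CPM in Bad_WT 1, above 217 in the next tumour. Adamts12 reached 15.5 CPM in Bad_WT 3, above 11.9 in the next. Among related genes, Cst3 was at 2148 CPM in Bad_WT 3 (next 737), Bcan at 30.0 CPM in Bad_WT 2 (next 6.37) and Pcsk7 at 104 CPM in Bad_WT 6 (next 86.3).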

How the results depend on the processing

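Adamts8 remained lower in Bad3SA in every alternative run. It lost its call with the replicate block (log2 -1.25, edgeR adjusted p = 0.129), without Bad3SA 3 and without Bad3SA 4, 5 and 6. Title numbers did not pair the tumours: same-numbered tumours correlated between -0.28 and 0.30, and number 6 alone was the best match both ways. Members called numbered 3 by DESeq2 (1 higher, Mmp7, and 2 lower, Adamts8 and Mmp17), 4 by limma voom (1 higher, Mmp9, and 3 lower, Adam11, Adamts8 and Mmp17), 0 with the replicate block, 0 without Bad3SA 4, 5 and 6, and 0 to 1 with single tumours left out. Related genes called, all lower, numbered 6 by DESeq2, 4 by voom, 0 with age, 1 with the replicate block (Serpine2), 1 without Bad_WT 5 and 6 (Tspan5) and 1 to 2 with single tumours left out. At an unadjusted p under 0.05 there were 10 members with the block and 8 without Bad3SA 4, 5 and 6. The members' median was 0.0391 in voom, 0.0258 without Bad_WT 5 and 6 and 0.0532 without Bad3SA 4, 5 and 6. The median of all genes was 0.16 by DESeq2 and 0.13 without a filter, both over more genes. All genes called numbered 998 by DESeq2 (479 higher, 519 lower), 579 by voom (231 and 348), 73 with age (50 and 23), 105 with the replicate block (63 and 42), 163 at 1 CPM or more in 6 tumours (86 lower) and 151 without Bad3SA 4, 5 and 6 (67 lower). With single tumours left out they numbered 147 to 315 (73 to 153 higher, 61 to 162 lower). The age difference was 4 weeks between medians (exact permutation p = 0.0628).

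Signs reversed only for genes without a call. With age they did so for Mmp3 (-0.0659), Mmp11 (-0.10), Adam10 (0.0157), Timp1 (-0.45) and Pcsk7 (0.0203). Without Bad3SA 4, 5 and 6 they did so for Mmp2 (0.0471), Adam10 (0.18), Adam17 (0.0532) and Adamts10 (-0.35), and without Bad_WT 5 and 6 for Adamts14 (0.49), Timp2 (0.0258), Timp1 (-0.0510) and Pcsk6 (0.0732). In voom they did so for Adamts14 (0.0537) and Pcsk6 (0.0218). Adam9 was at -1.6e-04 by DESeq2, -0.0265 without a filter and -0.0046 with the replicate block. With single tumours left out Adam9 ranged from -0.0534 to 0.0609, Mmp2 from -0.52 to 0.0726, Mmp11 from -0.00803 to 0.20, Timp2 from -0.16 to 0.00524, Timp1 from -0.00294 to 0.27. The causes were not tested. Depth limits the scarce genes, since 3 counts correspond to at most 0.0544 CPM.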
